A study of Mus musculus with 6 samples.

Results

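The cyclin-dependent kinase (CDK) inhibitors and the pocket proteins of quiescence are 10 genes: Cdkn1a, Cdkn1b and Cdkn1c of the CIP/KIP family, Cdkn2a, Cdkn2b, Cdkn2c and Cdkn2d of the INK4 family, the CDK phosphatase Cdkn3, and the pocket proteins Rbl1 and Rbl2. They were taken by gene symbol from a table of 23718 genes, and all 10 were listed. RNA was sequenced from laser-captured regions of the continuously growing incisor of 1-month-old C57BL/6 mice. The mesenchymal stem cell (MSC) region was cut from 3 samples of Gli1-CreER;tdT mice and the transit amplifying cell (TAC) region, which holds the dividing progeny, from 3 samples of Axin2-CreER;tdT mice. Every mouse carried a tamoxifen-dependent Cre and a red reporter and had tamoxifen 1 day before, so no group was untreated. The labels name the C57BL/6 strain, while the methods describe the mice as of mixed background. The drivers report Gli1 or Axin2 activity and the laser cut out regions, so each sample can hold more than the labelled cell type. The labels do not tie a library to an animal, so p-values measure the spread between these samples. The comparison asks whether the genes that hold back the cell cycle differ between the slowly dividing and the rapidly dividing region.

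A cell enters S phase when cyclin-bound CDKs phosphorylate the retinoblastoma family and free the E2F transcription factors. INK4 proteins bind CDK4 and CDK6 and keep them from D-type cyclins, whereas CIP/KIP proteins bind whole cyclin-CDK complexes, chiefly those of CDK2. Rbl1 (p107) and Rbl2 (p130) are relatives of the retinoblastoma protein that pair with the repressor E2Fs. Rbl2 anchors the DREAM complex, which silences cell cycle genes in resting cells, while Rbl1 is itself a target of E2F and is made mainly by cycling cells.

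Promoter stretches of 4 of the genes are shown first, because genes of the cell cycle share short promoter motifs. Rbl1, Cdkn3 and Cdkn1a were chosen for the motifs near their starts, not for the size of their differences. RefSeq sequences on GRCm38 covered 9 of the 10 genes in 12 windows of the 250 bases before an annotated start. Cdkn1c had no entry. Stretches just upstream of the start are given 5′ to 3′ on the strand of the gene, with motifs in capitals. Capitals mark an E2F motif in Rbl1, the cell cycle homology region (CHR) and CCAAT motifs in Cdkn3, and the p53 decamer in Cdkn1a. The Rbl2 stretch, shown as the counterpart of that of Rbl1, held none of the motifs searched.
Rbl1, chr2:157204535-157204614, minus strand: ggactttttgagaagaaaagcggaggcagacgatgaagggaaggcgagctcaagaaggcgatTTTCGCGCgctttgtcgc
Rbl2, chr8:91069977-91070056, plus strand: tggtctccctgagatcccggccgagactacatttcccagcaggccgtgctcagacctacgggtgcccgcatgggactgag
Cdkn3, chr14:46760391-46760540, plus strand: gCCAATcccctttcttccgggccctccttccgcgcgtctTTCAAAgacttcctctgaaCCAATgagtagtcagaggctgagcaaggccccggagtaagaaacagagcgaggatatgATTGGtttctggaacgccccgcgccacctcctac
Cdkn1a, chr17:29090899-29090974, plus strand: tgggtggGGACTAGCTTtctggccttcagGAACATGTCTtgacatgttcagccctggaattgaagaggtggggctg

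The E2F motif was searched on both strands as TTTCCCGC, TTTCGCGC, TTTGCCGC or TTTGGCGC. It stood in 2 of the 12 windows, those of Rbl1 and of the upstream start of Cdkn2a, against 1.86% of the 32851 windows of all genes. In Rbl1 it began 18 bases before the start. CHR (TTTGAA, either strand) stood in the windows of Cdkn2b, Cdkn3 and Rbl2, against 16% of all windows. CCAAT on either strand stood in the windows of Cdkn1b, Cdkn2d and Cdkn3, against 33.8%, and Cdkn3 held 3 copies. The p53 decamer stood in the upstream window of Cdkn1a, 2 times, and in that of Cdkn2d, against 7.13% of all windows. The GC box GGGCGG, on either strand, stood in 7 of the 12 windows, against 32.7%. No motif contains another, although the E2F and GC box letters can share bases, and a match says only that these letters lie in the window.

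The values are read numbers scaled per library, so a gene's values are comparable from library to library. Estimated depth was 20203159 to 25567244 reads in replicates 1 and 2 of each group, 59793645 in MSC replicate 3 and 108156380 in TAC replicate 3. Replicate 3 stood apart: 42.6% of the listed genes had no read in MSC replicate 3 and 27.8% in TAC replicate 3, against 6.38% to 7.88% in the other libraries. Mitochondrial rRNA took 0.112% and 0.236% of the reads in replicate 3 and 8.28% to 9.07% in the others. Fold changes are therefore given with all libraries and also, where so named, in replicates 1 and 2 and in replicate 3, where each group has 1 library and no test. Of the markers behind the group labels, Gli1 differed by -0.54 (SE 0.48) and Axin2 by 0.60 (SE 0.60) on the log2 scale, TAC minus MSC, with limma adjusted p-values of 0.718 and 0.758. In replicates 1 and 2 and in replicate 3, Gli1 differed by -0.77 and -0.090 and Axin2 by 0.18 and 1.43, and 1 of these 2 genes passed the adjusted threshold with replicates 1 and 2 only.

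Of the 10 genes, 8 averaged 1 or more across the libraries and were tested. Cdkn2a and Cdkn2b were too low. In limma, with adjustment over all 15391 genes tested, 0 of the 8 passed an adjusted p of 0.05, against 0.422% of all genes (65 genes), and a fit with the replicate number as a block also gave 0, against 1.49% of all genes. At an unadjusted p of 0.05, 2 of the 8 passed, Cdkn2c and Cdkn3, against 11.9% of all genes. That count was 0 without TAC replicate 1 (against 6.73% of all genes) or 2 (6.68%), where Cdkn2c had a limma p of 0.0637 and 0.0802, and 0 with replicates 1 and 2 averaged (4%). It was 1 without MSC replicate 2 (8.88%) and 3 without MSC replicate 3 (20.2%). A pseudocount of 0.1 gave 1 (10.6%), a pseudocount of 5 gave 3 (12.3%), and a minimum mean of 10, which left 6 of the 8 genes, gave 1 (14.6%). Both were higher in TAC, as were 5.42% of all genes, and 0 of the 8 passed toward MSC, against 6.43%. With the block 5 of the 8 had an unadjusted p under 0.05, against 20.4%. With limma voom on recovered reads 0 passed the adjusted threshold and 2 an unadjusted p of 0.05, Cdkn2c and Rbl1, against 23.2% of all genes. The median log2 fold change of the 8 was 0.46, against 0.03 over all genes tested. The groups did not overlap for 5 of the 8 genes, against 24.5% of all genes: Cdkn1a, Cdkn2c, Cdkn3 and Rbl1 had every TAC library above every MSC library, and Cdkn1b had every TAC library below.

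**Figure D1:**
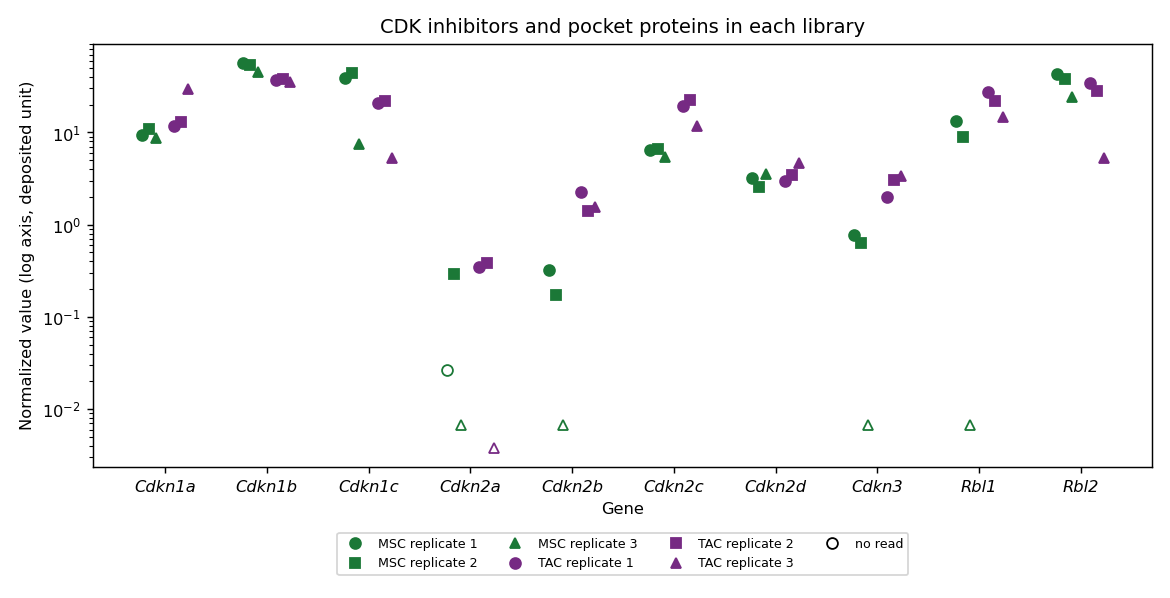
Normalized value of each gene (log axis, deposited unit) in the 3 MSC libraries (green) and the 3 TAC libraries (purple), with the marker shape giving the replicate and open markers a library without a read. The MSC and TAC points do not overlap for Cdkn1a, Cdkn1b, Cdkn2b, Cdkn2c, Cdkn3 and Rbl1, and open markers sit at the value of 1 read in the library.

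With all 6 libraries the pocket proteins had the highest and the lowest log2 fold change of the 8 genes tested, an order that did not hold in replicates 1 and 2, where Cdkn2c (1.55) was above Rbl1 (1.11) and Cdkn1c (-0.93) and Cdkn1b (-0.55) were below Rbl2 (-0.36). Without MSC replicate 3, Cdkn2c (1.28) and Cdkn3 (1.14) were above Rbl1 (0.87) and Cdkn1c (-1.54) was below Rbl2 (-1.15). Rbl1 (chromosome 2, 157145893 to 157204534, minus strand), the E2F-induced p107, had values of 13.5 and 8.84 in MSC replicates 1 and 2 and no read in MSC replicate 3 (listed at 0.00666), against 27.4, 22.2 and 14.7 in TAC. Every TAC library was higher than every MSC library. MSC replicates 1 and 2 held 504 and 304 estimated reads of Rbl1, while MSC replicate 3, the deepest of the MSC libraries, held 0, which allows a listed value of up to 0.0266 (3 reads plus the added 1, counting error only). Of all genes tested, 21% had no read in that library. The pseudogene Gm14277 overlaps Rbl1 on the opposite strand. The log2 fold change was 2.06 (SE 0.98, 95% interval -0.23 to 4.35, limma adjusted p 0.470), and 1.11 in replicates 1 and 2 alone against 3.97 in replicate 3. Without MSC replicate 3 it was 0.87. With a pseudocount of 0.1 in place of 1 it was 3.15, with 5 it was 1.25, and with voom it was 8.10 (SE 2.59).

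Rbl2 (chromosome 8, 91070057 to 91123844, plus strand), the p130 of resting cells, measured 43.2, 38.0 and 24.4 in the MSC libraries by replicate number, against 34.6, 28.3 and 5.33 in TAC. Each TAC value lay below the MSC value of the same number, but the groups overlapped. The log2 fold change was -0.91 (SE 0.66, 95% interval -2.47 to 0.65, adjusted p 0.659). Replicates 1 and 2 alone gave -0.36 and replicate 3 gave -2.01, and without TAC replicate 3 it was -0.13. Rbl2 overlaps Aktip on the opposite strand, by a length that was not measured. Reads from the shared stretch cannot be told apart, because the use of strand in counting is not given in the sources used here.

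The level of Rbl1 relative to that of Rbl2 was followed as a log2 ratio of values plus 1, not divided by length, so it compares the groups and does not say which gene was more abundant. The log2 ratio of Rbl1 to Rbl2 was -1.61, -1.99 and -4.66 in MSC by replicate number, against -0.32, -0.34 and 1.31 in TAC. MSC averaged -2.75 ± 1.66 (SD, n = 3), whereas TAC averaged 0.22 ± 0.95 (SD, n = 3). The difference was 2.97, with all 3 TAC libraries above all 3 MSC libraries, and the 2-sided exact permutation test gave p = 0.1, the smallest that 3 against 3 can give. The difference was 1.47 with replicates 1 and 2 only, and 2.02 without MSC replicate 3. The MSC replicate 3 ratio, with 0 reads of Rbl1, is set by the added 1, and the difference was 4.13 with a pseudocount of 0.1 and 1.98 with 5. With the replicate number as pairing the exact p was 0.25, the smallest that 3 pairs allow.

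**Figure D2:**
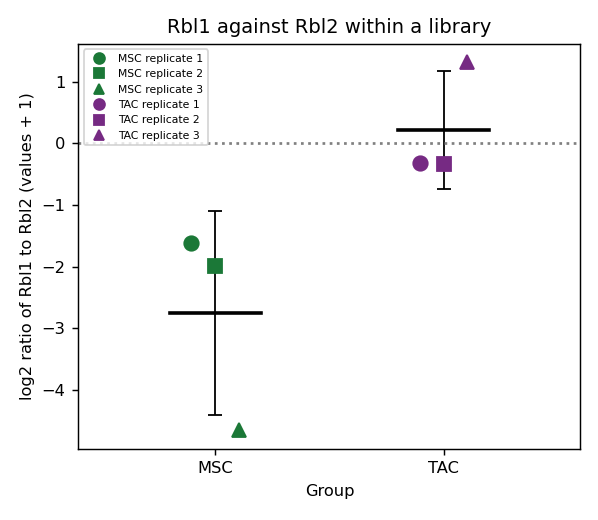
Log2 ratio of Rbl1 to Rbl2 (each value plus 1) in each library, by group, with the mean as a horizontal line and the SD as an error bar (n = 3). The MSC libraries lie between -4.66 and -1.61 and the TAC libraries between -0.34 and 1.31.

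By profile over the 6 libraries, the genes nearest to Rbl1 were Gm11518, Tdrd7 and Hs3st3b1, at distances of 0.448, 0.468 and 0.509 between centred log2 values. Those nearest to Rbl2 were Ppp1r12a, Gm43088 and E330034L11Rik, at 0.289, 0.311 and 0.335. The measure covers 6 libraries that share the split between replicate 3 and the others.

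The CIP/KIP genes leaned to different sides, Cdkn1b and Cdkn1c with lower means in TAC and Cdkn1a with a higher one, and 0 of the 3 passed the test. Cdkn1b (chromosome 6, 134920401 to 134925513, plus strand) encodes p27, the inhibitor whose loss enlarges many organs. The MSC libraries gave 56.3, 54.2 and 45.7 by replicate number, against 37.0, 38.0 and 35.1 in TAC. MSC averaged 52.1 ± 5.61 (SD, n = 3), which was 1.42 times the TAC mean of 36.7 ± 1.47 (SD, n = 3). The lowest MSC library was above the highest TAC library, and the spread within TAC was small. On the log2 scale the difference was -0.49 (SE 0.25, 95% interval -1.07 to 0.091, limma adjusted p 0.4999). Replicates 1 and 2 alone gave -0.55 and replicate 3 gave -0.37.

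Cdkn1c (chromosome 7, 143458339 to 143461050, minus strand) encodes p57, the imprinted member of the family that is linked to stem cell quiescence. The MSC values were 39.4, 44.2 and 7.53 by replicate number, and those of TAC were 21.1, 21.8 and 5.31. Within each replicate number TAC was lower, but replicate 3 was so low in both groups that the groups overlapped. TAC minus MSC was -0.76 on the log2 scale (SE 0.78, 95% interval -2.60 to 1.07, adjusted p 0.767). Replicates 1 and 2 alone gave -0.93 and replicate 3 gave -0.43, and the fit ran from -1.54 without MSC replicate 3 to -0.16 without TAC replicate 3. With the replicate block its SE was 0.24 (adjusted p 0.190). An antisense gene, Gm44732, overlaps Cdkn1c.

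Cdkn1a (chromosome 17, 29090976 to 29100727, plus strand) encodes p21, the main p53-induced inhibitor. By replicate number it measured 9.43, 10.8 and 8.66 in MSC, against 11.7, 12.9 and 29.3 in TAC. TAC replicate 3 alone carried most of the difference, yet every TAC library was above every MSC library. The difference was 0.72 on the log2 scale (SE 0.44, 95% interval -0.31 to 1.76, limma adjusted p 0.586). Replicates 1 and 2 alone gave 0.26, replicate 3 gave 1.65, and the fit without TAC replicate 3 gave 0.33. AC167363.2 overlaps Cdkn1a on the opposite strand.

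Of the INK4 genes, Cdkn2c and Cdkn2d were tested. Cdkn2c (chromosome 4, 109660876 to 109667189, minus strand) encodes p18, an inhibitor of CDK4 and CDK6. MSC values were 6.45, 6.55 and 5.47 by replicate number, against 19.2, 22.8 and 11.6 in TAC. TAC averaged 17.8 ± 5.67 (SD, n = 3), which was 2.90 times the MSC mean of 6.16 ± 0.595 (SD, n = 3). All TAC libraries were well above the MSC libraries, and no library was without reads. The log2 fold change was 1.35 (SE 0.41, 95% interval 0.40 to 2.30, unadjusted p 0.0118, adjusted p 0.250). Replicates 1 and 2 alone gave 1.55 and replicate 3 gave 0.97, and the alternatives put its adjusted p anywhere from 9.05e-05 to 1.00. With library set (replicate 3 against replicates 1 and 2) as a batch term the adjusted p was 0.0245, and Cdkn2c was then 1 of the 8 genes past the threshold, against 11.8% of all genes.

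Cdkn2b, which encodes p15 and lies beside Cdkn2a on chromosome 4 (89306299 to 89311039, minus strand), was listed at 0.320, 0.174 and 0.00666 in MSC replicates 1, 2 and 3, the last without a read. In TAC it was listed at 2.28, 1.39 and 1.57. These rested on 11, 5 and 0 reads in MSC and on 103, 57 and 413 in TAC. The groups did not overlap, against 17.6% of all listed genes. The ratio of means was 10.5, at a level under the minimum set for testing. Without that minimum the log2 fold change was 1.23 (SE 0.38, unadjusted p 0.0116, limma adjusted p 0.387 over all listed genes). The difference was 1.17 for replicates 1 and 2 and 1.35 for replicate 3. In that fit 0.207% of all genes passed the adjusted threshold and 7.79% an unadjusted p of 0.05.

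Cdkn2d (chromosome 9, 21288410 to 21291407, minus strand), which encodes p19 INK4d, gave 3.22, 2.58 and 3.50 in MSC by replicate number, against 2.96, 3.45 and 4.72 in TAC. The groups overlapped. The difference on the log2 scale was 0.19 (SE 0.48, 95% interval -0.94 to 1.32, limma adjusted p 0.932), and the interval reaches well to either side of 0. The difference was 0.11 for replicates 1 and 2 and 0.34 for replicate 3.

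Cdkn2a (chromosome 4, 89274471 to 89294653, minus strand) encodes p16 and, in another reading frame, the ARF protein, which a value per gene cannot separate. Estimated reads numbered 0, 9 and 0 in MSC by replicate number, against 15, 15 and 0 in TAC. The listed values with reads were 0.290 in MSC replicate 2 and 0.350 and 0.384 in TAC replicates 1 and 2, so the groups overlapped.

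Cdkn3 (chromosome 14, 46760541 to 46771669, plus strand) encodes a phosphatase that acts on CDK2 and is made in late cell cycle phases. MSC replicates 1 and 2 gave 0.773 and 0.637 and MSC replicate 3 had no read (listed at 0.00666), against 1.99, 3.07 and 3.36 in TAC. Reads numbered 28, 21 and 0 in MSC and 90, 127 and 884 in TAC. All TAC libraries were higher. The ratio of means was 5.94, and the log2 fold change, which the pseudocount of 1 understates at this level, was 1.39 (SE 0.51, 95% interval 0.19 to 2.60, unadjusted p 0.0290, adjusted p 0.346). Replicates 1 and 2 alone gave 1.03 and replicate 3 gave 2.11, while the fit gave 2.79 with a pseudocount of 0.1, 0.51 with 5 and 6.00 with voom. Its unadjusted p was 0.0606 with the pseudocount of 0.1 and 0.0508 with voom (limma).

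All 8 genes tested had the same direction in replicates 1 and 2 as in replicate 3, against 61.2% of all genes tested. Whether the size of a difference varied between the library sets was not tested. In replicates 1 and 2 alone, 6 of the 8 passed the adjusted threshold, against 44.2% of all genes: Cdkn2c, Cdkn3 and Rbl1 were higher in TAC and Cdkn1b, Cdkn1c and Rbl2 lower. That fit takes its error from libraries that were nearly equal, with a Pearson correlation across genes of 0.980 between the MSC pair and 0.988 between the TAC pair. Their counts differed by more than sampling noise, with a chi-square per gene of 10.3 and 8.33. They were counted as separate samples, as labelled, and the counts do not tell separate animals from separate preparations.

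**Figure D3:**
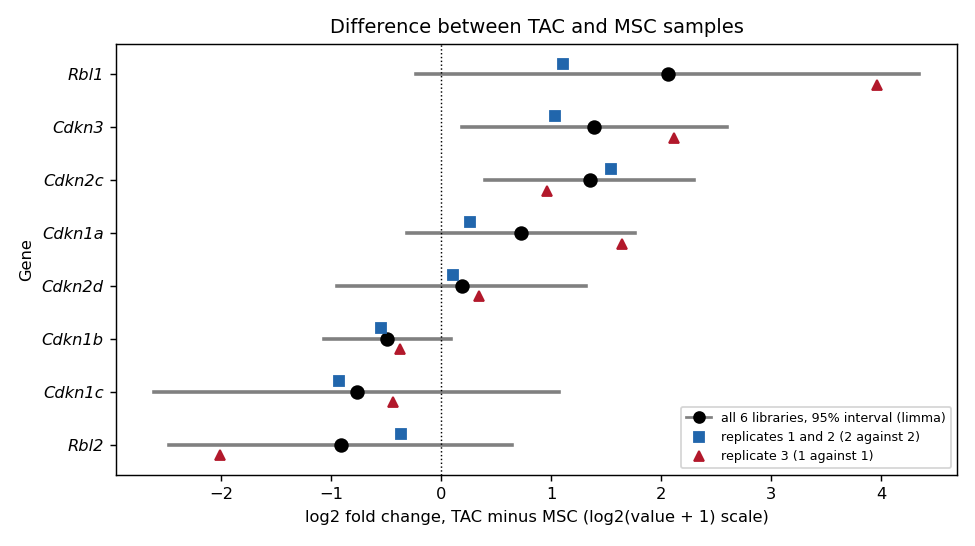
Log2 fold change, TAC minus MSC, of the 8 genes tested (log2(value + 1) scale), with black points for all 6 libraries and grey bars for the limma 95% interval. Blue squares give replicates 1 and 2 and red triangles replicate 3, and each gene has all 3 marks on the same side of 0, from Rbl2 at -0.91 to Rbl1 at 2.06.

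To compare the levels of different genes, values were divided by the length of their exons. Per kb of exon, the most abundant in MSC were Cdkn1c, at 14.9 ± 9.77 (SD, n = 3), and Cdkn1b, at 11.4 ± 1.23 (SD, n = 3), whose ranges overlapped. The rank of Cdkn1c rests on replicates 1 and 2: in replicate 3 it was 3.69 in MSC, against 10.04 for Cdkn1b, and 2.60 in TAC, below Cdkn1a, Cdkn1b, Cdkn2c and Cdkn2d. By its mean Rbl2 followed at 4.66 ± 1.29, below every Cdkn1b value and above every Cdkn1a value, which were 2.71 ± 0.311. Cdkn1a, Cdkn2c, Cdkn2d and Rbl1 came next, and each overlapped its neighbour. In TAC the order per kb was Cdkn1b at 8.07 ± 0.323, Cdkn1c at 7.87 ± 4.56, Cdkn2c at 6.65 ± 2.11 and Cdkn1a at 5.06 ± 2.76, with overlapping neighbours, then Rbl1 at 3.58 ± 1.07 and Rbl2 at 3.01 ± 2.04. The place of Cdkn1a above Rbl1 and Rbl2 rests on replicate 3, at 8.24. In replicates 1 and 2 Cdkn1a was 3.29 and 3.64, below both, and its range overlapped that of Rbl1. The Rbl1 and Rbl2 ranges overlapped in TAC: both were 4.58 in replicate 1, Rbl1 was 3.70 and Rbl2 3.75 in replicate 2, and Rbl1 was 2.46 and Rbl2 0.705 in replicate 3, so the lower mean of Rbl2 rests on replicate 3. Cdkn3, Cdkn2b and Cdkn2a were the lowest in each group.

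**Figure D4:**
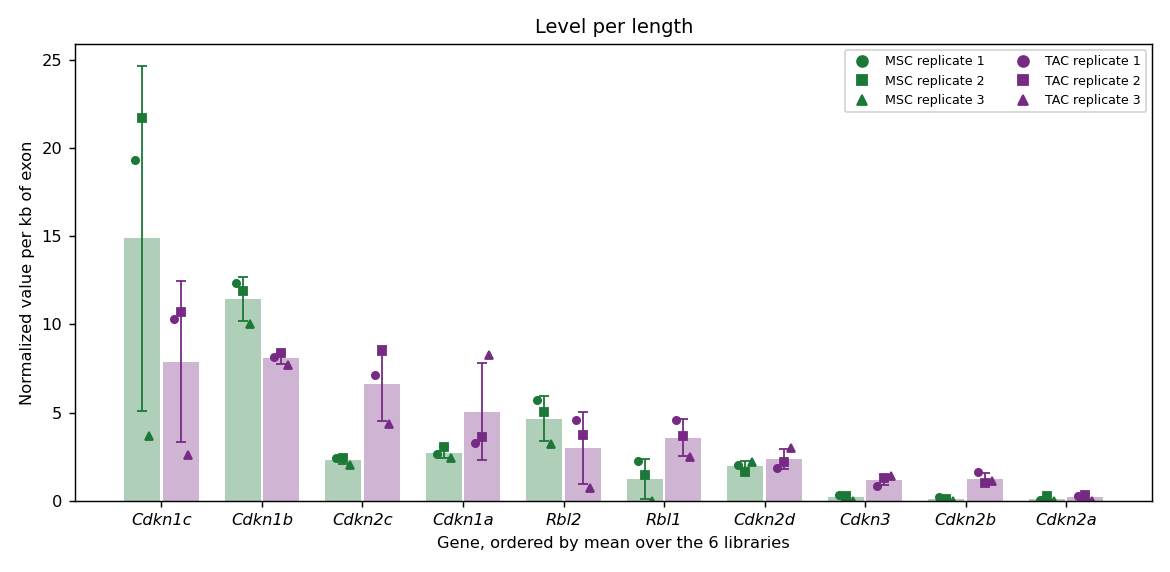
Normalized value per kb of exon, ordered by the mean over the 6 libraries, with bars for the group mean, error bars for the SD (n = 3, cut at 0) and points for the libraries. Cdkn1c and Cdkn1b are highest, with means of 14.9 and 11.4 in MSC and 7.87 and 8.07 in TAC, and Cdkn2a is lowest.

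The partners and regulators of these genes were read from lists of known function. Among 16 cyclins, CDKs and the enzymes that switch CDKs, 1 passed the adjusted threshold, Cdk1, the mitotic kinase, at 2.62 (SE 0.35, adjusted p 0.0390) and 0 passed toward MSC, against 0.422% of all genes. The median was 1.24, with 0.81 in replicates 1 and 2 and 0.91 in replicate 3. At the other end stood Ccnd2, cyclin D2, at -1.53 (SE 0.31, adjusted p 0.119). With the replicate block 3 passed, Cdk1 (adjusted p 0.0442), Cdk4 (1.27, adjusted p 0.0489) and Ccnd2 (adjusted p 0.0327), against 1.49% of all genes. The count was 3 without MSC replicate 3 (292 over all genes) and 7 with the library set as a batch term (11.8% of all genes). With replicates 1 and 2 only it was 13 (44.2%). It was 0 without MSC replicate 1 or 2 or without any 1 of the TAC replicates. It was also 0 with voom, without the variance trend or with replicates 1 and 2 averaged. Cdk4, the kinase that INK4 proteins bind, was named after its value was seen, as were the further genes below that passed only with the block.

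Of 19 genes of the DREAM complex and the E2F family 0 passed in limma. At an unadjusted p of 0.05, 10 passed, each higher in TAC, against 5.42% of all genes in that direction. The median of the list was 1.08 (0.67 in replicates 1 and 2, 1.79 in replicate 3). The genes ranged from the repressor E2f8, at 2.23 (SE 0.79, adjusted p 0.327), to the DREAM subunit Lin37, at -0.70 (SE 0.75, adjusted p 0.784). With the block 1 passed, Tfdp1, an E2F partner, at 1.40 (adjusted p 0.0442), against 1.49% of all genes. The adjusted count was 1 without MSC replicate 3 (292 over all genes) and 6 with the library set as a batch term (11.8% of all genes). With replicates 1 and 2 only it was 13 (44.2%). Among 8 proliferation markers 0 passed and 7 had an unadjusted p under 0.05, each higher in TAC, against 5.42% of all genes. Their list had a median of 2.04 (2.19 in replicates 1 and 2, 1.92 in replicate 3). The adjusted count was 1 with a pseudocount of 5 or without TAC replicate 3, 2 with quantile normalization and 3 without MSC replicate 3. Over all genes those fits gave 78, 36, 114 and 292. The count of markers was 6 with the library set as a batch term (against 11.8% of all genes) and 8 with replicates 1 and 2 only (44.2%). With the block, in which 1.49% of all genes passed, it was 3: Mki67, Mcm2 and Birc5, at adjusted p-values of 0.0442, 0.0489 and 0.0489. The largest and smallest changes were those of the licensing gene Mcm5, at 2.68 (SE 0.49, adjusted p 0.0909), and of Pcna, at 1.13 (SE 0.54, adjusted p 0.473).

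The p27 turnover list covers the SCF-SKP2 ligase that degrades p27 and the FOXO factors that transcribe it. Of its 11 genes 0 passed in limma and 2 had an unadjusted p under 0.05, higher in TAC, against 5.42% of all genes. The median was 0.68 (0.40 in replicates 1 and 2, 0.79 in replicate 3). The SCF cofactor Cks1b was at 2.46 (SE 0.67, adjusted p 0.195) and the scaffold Cul1 at -0.22 (SE 0.54, adjusted p 0.927). Of 15 tested among p53 and its targets 0 passed and 1 had an unadjusted p under 0.05, toward MSC, against 6.43% of all genes. The median was -0.34 (-0.087 in replicates 1 and 2, -0.60 in replicate 3). Sesn2 was at 1.77 (SE 0.79, adjusted p 0.444) and Rrm2b at -1.57 (SE 0.66, adjusted p 0.415), so that Cdkn1a, at 0.72, lay above the median of the list.

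Polycomb genes, which silence the Cdkn2a locus in many tissues, had 0 of 14 past the adjusted threshold. At an unadjusted p of 0.05 there were 3, of which 1 was higher in TAC and 2 in MSC, against 11.9% of all genes. The median was -0.13, which was 0.065 in replicates 1 and 2 and -0.30 in replicate 3. Cbx2 was at 1.62 (SE 0.45, adjusted p 0.205) and Cbx7 at -2.14 (SE 0.38, adjusted p 0.0885). Of 6 tested neighbours of Cdkn1c in its imprinted cluster 0 passed and 1 had an unadjusted p under 0.05, against 11.9% of all genes. They ran from Nap1l4, at 0.39 (SE 0.27, adjusted p 0.639), to the potassium channel gene Kcnq1, at -1.14 (SE 0.57, adjusted p 0.496).

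**Figure D5:**
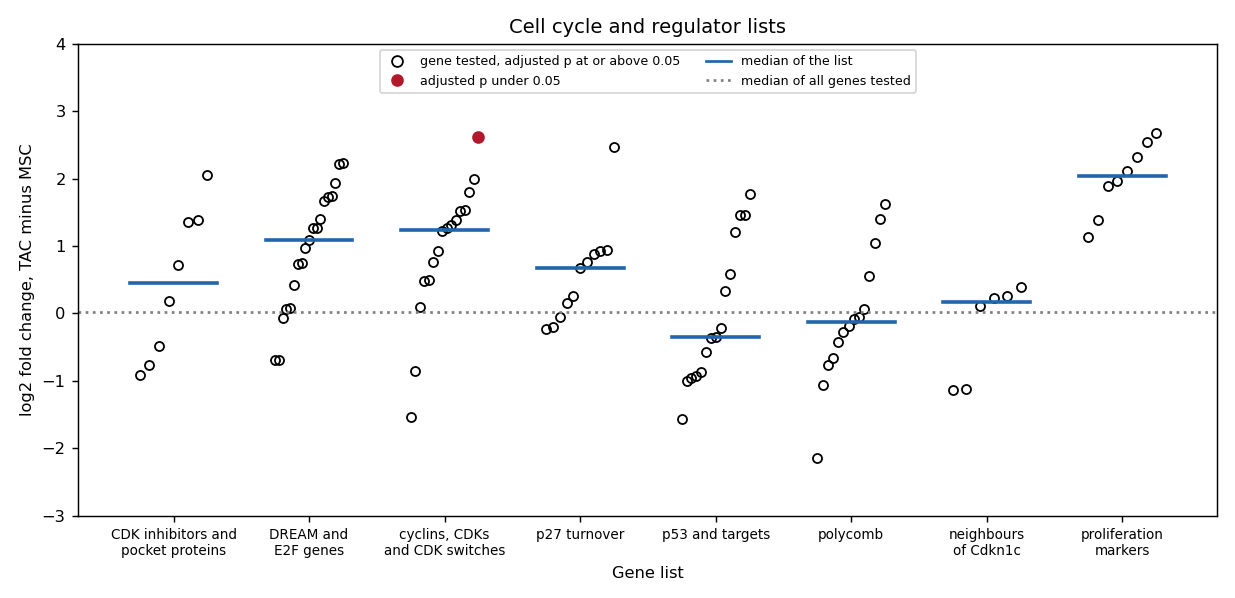
Log2 fold change, TAC minus MSC, of each gene tested in 8 lists (open circles), with filled red circles for an adjusted p under 0.05, blue lines for the median of a list and a dotted line for the median of all genes tested (0.03). Only Cdk1 in these lists is filled, at 2.62, and the list medians run from -0.34 for p53 and its targets to 2.04 for the proliferation markers.

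The summed value of 6 smooth muscle and pericyte markers was 723 to 1404 in MSC and 79.0 to 105 in TAC, with Tagln, Myh11, Acta2 and Rgs5 past the adjusted threshold at -3.60, -5.56, -5.36 and -3.29 (adjusted p 0.0337 to 0.0491). These 4 calls fell to 0 with voom and without MSC replicate 1 or 2 or TAC replicate 1 or 2, to 1 without TAC replicate 3, with a pseudocount of 0.1 or without the variance trend, and to 2 with replicates 1 and 2 averaged. With the replicate block the count stayed at 4, with Acta2 lost (adjusted p 0.0701) and Cspg4 gained (-1.45, adjusted p 0.0442). Acta2 had 2 estimated reads in TAC replicate 3, under the floor of 3. The sum of 5 endothelial markers was 129 to 195 in MSC and 62.8 to 84.1 in TAC, and that of 4 Schwann cell markers 16.7 to 29.7 in MSC and 4.73 to 14.8 in TAC. The endothelial markers ran from Pecam1, at -1.59 (SE 0.35, adjusted p 0.139), to Kdr, at 0.0015 (SE 0.37, adjusted p 0.999). Kdr was at 0.47 in replicates 1 and 2 and -0.93 in replicate 3, and Tek at -1.01 and 0.11. Summed odontoblast markers were 2364 in MSC replicate 3 and 12495 to 15983 elsewhere. The sum of 8 dental epithelium markers was 3657 and 3595 in MSC replicates 1 and 2, 299.7 in MSC replicate 3, and 3264, 3337 and 2145 in TAC by replicate number. In MSC replicate 3, Cdh1, Epcam and Sox2 had no read. The other 5, the keratins Krt14 and Krt5 and the enamel genes Amelx, Ambn and Enam, were detected there. The enamel genes made up most of the sum in every library. Amelx alone was 2503 and 2492 in MSC replicates 1 and 2 and 80.6 in MSC replicate 3. Among the MSC libraries, each enamel gene was lowest in replicate 3, whereas Krt14 and Krt5 were both highest there. Of the 7 epithelium markers tested 0 passed the adjusted threshold and 1 an unadjusted p of 0.05, against 11.9% of all genes. Summed proliferation markers were 145 to 251 in MSC and 397 to 1134 in TAC, and summed dental mesenchyme markers were 2611 in MSC replicate 3 and 8678 to 11917 elsewhere. Col1a1, which is in both the dental mesenchyme and the odontoblast list, made up most of both sums. It was 1554 in MSC replicate 3 and 8030 to 11167 elsewhere. Among the MSC libraries, the mesenchyme markers Prrx1, Pax9 and Vim were highest in replicate 3, and the other mesenchyme markers were lowest there. In the immune, Schwann, erythroid, odontoblast, endothelial and dental mesenchyme lists 0 genes passed in limma. At an unadjusted p of 0.05 there were 0 to 3 per list, against 11.9% of all genes. In the dental mesenchyme list the adjusted count was 1 with the replicate block (Pax9, -1.45, adjusted p 0.0442) and 2 without MSC replicate 3. The part of these in the differences above was not tested. In bulk samples, fewer cells of a type and less RNA per cell cannot be told apart.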

How the data were processed

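Reads were trimmed and mapped to mm10 by the authors with TopHat (2.0.8), and the methods name RPKM as the normalization. The table that the authors deposited instead behaves as a signal: a read number plus 1 read, divided by 1 factor per library and not by gene length. The submitters' processing notes also name CASAVA 1.8.2 and Partek, with no role given. Use of strand is not given in the sources used here. Read numbers were recovered as the value over the lowest value of its library, minus 1. Between 0.5 and 50 reads, 60.7% to 71.6% of them lay within 0.01 of a whole number, so they entered only 1 alternative (limma voom).

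The design assumed RPKM. The same log-scale test was kept: log2(value + 1), limma 3.58.1 in R 4.3.3 with a variance trend, 15391 genes averaging 1 or more across the 6 libraries, two-sided, TAC minus MSC, Benjamini-Hochberg adjustment with a threshold of 0.05. The code was tested on simulated data. Fits were repeated under 20 alternatives.

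Same-numbered samples had correlated deviations from their group means (0.477, 0.465 and 0.517). Differently numbered samples among replicates 1 and 2 gave 0.462 and 0.480. The correlations therefore show the split of replicate 3 from the others and do not pair number 1 apart from number 2.

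Members and lists were chosen with earlier results of these data known. Named genes were the members, Gli1, Axin2 and Mki67, the called genes and the largest change in each direction of each list, and the 3 nearest profiles to the members with the largest and smallest change. Gene coordinates are 1-based from GENCODE M21 (GRCm38, the same assembly as mm10). The deposited start and end, with the end lowered by 1, matched it for 7 of 10 members. 1 gene of the dental epithelium list is not reported here.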

Additional observations from a re-analysis of the deposited data

How the results depend on the processing

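Of 20 alternatives, 18 left 0 of the CDK inhibitors and pocket proteins past the adjusted threshold. With the library set as a batch term 1 passed (Cdkn2c), and with replicates 1 and 2 only 6 passed. None of these genes changed direction under an alternative that tested it. The count over all genes, 65, became 38 with a pseudocount of 0.1, 114 with quantile normalization, 29 without the variance trend, 23 with voom, 229 with the replicate block, 1814 with the library set as a batch term, 6796 with replicates 1 and 2 only and 10 with replicates 1 and 2 averaged. It ran from 0 to 292 when 1 library was left out: 0 without MSC replicate 1 or 2 or TAC replicate 1 or 2, 292 without MSC replicate 3 and 36 without TAC replicate 3. For the members the count stayed at 0 in those 6 fits, and the replicate block changed no call among them. The causes were not tested. The Rbl1 to Rbl2 difference ran from 2.02 to 3.54 when 1 library was left out, and from 1.98 to 4.13 with pseudocounts of 5 and 0.1. Cdkn2a had few reads in both groups and Cdkn2b had few in MSC. Cdkn2a, Cdkn2b, Cdkn3 and Rbl1 had 0 in MSC replicate 3, the deepest MSC library.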
